A study of Drosophila melanogaster with 8 samples.

Results

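The crude head homogenate of adult Drosophila melanogaster was profiled by 3′-seq, in which a read marks the last bases of one transcript before its poly(A) tail. These 4 libraries, named input 1, 2, 3 and old here, were chosen by their label as the untreated starting material for a fractionation, and they are 4 of the 8 samples in the series. The other samples are a synaptic fraction of the same tissue, and no comparison with them is made here. All 4 input libraries carry the genotype label wt and no treatment. The study's methods name 3-day-old w1118 flies, a white-eyed laboratory strain, whose heads were taken fresh from sieves after blending, while the growth text in the labels describes heads of snap-frozen flies. Which preparation belongs to which library is not said. The library named old here had only that word in its count column, it was placed in the group by its H prefix, and the labels give no age difference. The labels do not say whether each library had its own collection of flies, and the spread between them may be technical.

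The fly head holds the brain, the compound eyes with their photoreceptors and pigment cells, glia, fat body, muscle, cuticle and the sensory organs of the antennae. Photoreceptors detect light with a rhodopsin that activates a G protein, a phospholipase and the TRP channels, and arrestins end the response. A gene can end its transcripts at several poly(A) sites, and in fly neurons many genes use distal sites that lengthen the 3′ UTR. A 3′-seq count is per transcript end, so levels are given as CPM, the gene's count over the library total on the usual per-million scale, with no division by transcript length. In a homogenate of many cell types, fewer cells of a type and less RNA per cell cannot be told apart.

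Input 1, 2, 3 and old held 7940909, 9310319, 11644312 and 16865581 counts over 10669 genes and 20177 3′ ends. At least 1 count was found for 8244 genes in all 4 libraries, and at least 10 counts for 7721. Per library, 8760 to 9587 genes were detected, and 8760 to 9565 would be expected had each library been drawn down to the smallest total. Protein-coding genes took 98.9% ± 0.0564 of counts (SD, n = 4 libraries, as for all means given here). Counting error is small at this depth: the 95% Wilson interval of every list share given here is at most 0.0264 percentage points to either side, and that of a single library's level of any of the 30 most abundant genes at most 1.38% of that level. Such intervals cover counting error only, since reads had no molecular identifiers.

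The homogenate was dominated by the eye and by the ribosome. Arr2, the major arrestin of photoreceptors (3L:8647261-8648936), was the most abundant gene in every library, with 38934 CPM in input 1, 23531 in input 2, 32242 in input 3 and 31461 in input old. Its mean of 31542 ± 6307 CPM was 3.15% of all counts, and input 2 was the lowest. Arr1, the second visual arrestin (2L:18078269-18081307), had 14375, 11217, 12923 and 14053 CPM in input 1, 2, 3 and old. Ggamma30A, the γ subunit of the visual G protein (2L:9256563-9302494), had 13596, 17371, 11923 and 9445 CPM. Its order over the libraries differed from that of Arr1, with input 2 at the top. The gene ninaE, which encodes rhodopsin 1 of the outer photoreceptors (3R:19886255-19888206), had 13457, 9609, 12948 and 5000 CPM and was lowest in input old. CG17108, a gene without an assigned name (2L:10692940-10694103), ranked 4th with 9879, 17058, 7940 and 9443 CPM.

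Of the 30 most abundant genes, 16 encode cytosolic ribosomal proteins, and of the first 100, 55 do. RpL8, the most abundant of them, had 7294, 9850, 6080 and 11156 CPM in input 1, 2, 3 and old. RpL27A averaged 6682 ± 1525 CPM, RpL7A 6386 ± 653 CPM and RpS16 5194 ± 458 CPM. RpS9 was the least even of the leading ones, with 11487 CPM in input 2 against 4038 to 6068 CPM in the others. The remaining leading genes came from several tissues. EbpIII, a small secreted protein of the family that includes odorant carriers, averaged 6242 ± 1589 CPM, and Pdh, a dehydrogenase of retinal pigment cells, 5445 ± 1459 CPM. Ald1, the glycolytic aldolase, was even at 4638 ± 243 CPM, as was MtnA, a metal-binding metallothionein, at 4617 ± 522 CPM. ATPsynC, the c subunit of the mitochondrial ATP synthase, averaged 4610 ± 982 CPM. Retinin, a protein of the corneal lens, had 6390 CPM in input 1 and 2141 to 3989 CPM in the others. Listericin, an antibacterial peptide gene, had 5240, 8566, 3256 and 1453 CPM in input 1, 2, 3 and old, and its extremes lay 5.90 times apart.

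**Figure D1:**
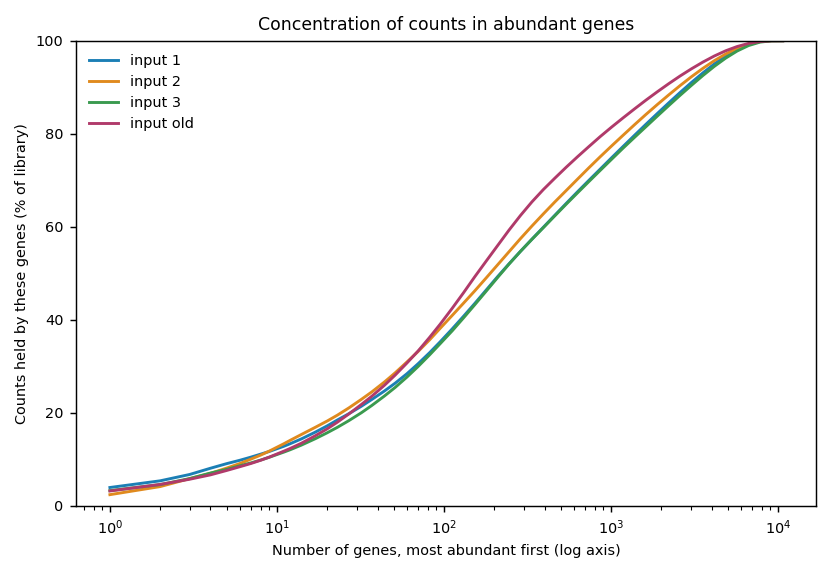
Share of each library's counts (y axis, %) held by its most abundant genes (x axis, number of genes, log axis), one line per input library. The lines of input 1 and input 3 run together, 159 genes take 50% of counts in input old, and the other libraries need 190 to 221.

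Counts were concentrated in few genes. By mean CPM, 203 genes held 50% of counts and 2706 held 90%. The 10 genes with the highest mean held 11.3% ± 0.820 of counts and the first 100 held 36.7% ± 1.62. A mean of 1000 CPM was reached by 198 genes, of 100 CPM by 1389 and of 10 CPM by 6304, and the median gene had 15.6 CPM. The libraries shared most of their abundant genes: 5 genes were among the first 10 of every library (Arr2, Arr1, Ggamma30A, CG17108 and RpL8), 18 among the first 30 and 66 among the first 100. The abundant genes were short, with a median transcript length of 791 bases for the protein-coding ones among the first 100, beside 1783 bases over all protein-coding genes in the table. Taking the longest annotated 3′ UTR of each gene, their median was 230 bases, close to the 267 bases of all protein-coding genes. The median of the longest coding length was 546 bases beside 1296.

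Among genes known only by a CG number, CG17108 was followed by CG8369 and CG34227. CG8369 had 4334, 8563, 5027 and 4866 CPM in input 1, 2, 3 and old, and CG34227 2790, 7925, 3337 and 1198 CPM. Both were highest in input 2. The next ones, CG4716, CG6770, CG12158, CG6409, CG40472, CG3662 and CG2233, averaged 1172 to 2097 CPM.

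The genes were next grouped into 31 lists by tissue or process. Cytosolic ribosomal protein genes formed the largest list, with 17.5, 18.7, 19.3 and 22.5% of counts in input 1, 2, 3 and old from 79 genes in the table, of which 76 had at least 10 counts in every library. Their median level was 2232 CPM. Mitochondrial ribosomal proteins, 69 genes, took only 0.438% ± 0.0360, with mRpS9 (258 ± 53.7 CPM), mRpL38 and mRpL28 in front. Translation factors took 1.13% ± 0.116, led by eEF2, the elongation factor that moves the ribosome along, with 1702 ± 164 CPM. Phototransduction and its shutoff took 9.66, 7.37, 8.32 and 7.13% from 28 genes, and the 7 visual pigment genes 1.72, 1.27, 1.74 and 0.864%. The visual pigment sum was lowest in input old also when libraries were scaled by TMM or by median-of-ratios size factors, but ninaE carried this: without it the other 6 genes took 0.377, 0.310, 0.441 and 0.364%, lowest in input 2, and input old was highest under the other scalings. The phototransduction sum was highest in input old under those scalings. Arr2 and Arr1 held 530612 and 237008 of its 1201958 counts there, and its share without them was not examined. Of its 27 members with at least 10 counts in every library, 17 were lowest in input old by library totals and 2 highest. Input old was the lowest library for 47.1% of the 6461 genes averaging 100 or more counts, and the highest for 17.1%.

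**Figure D2:**
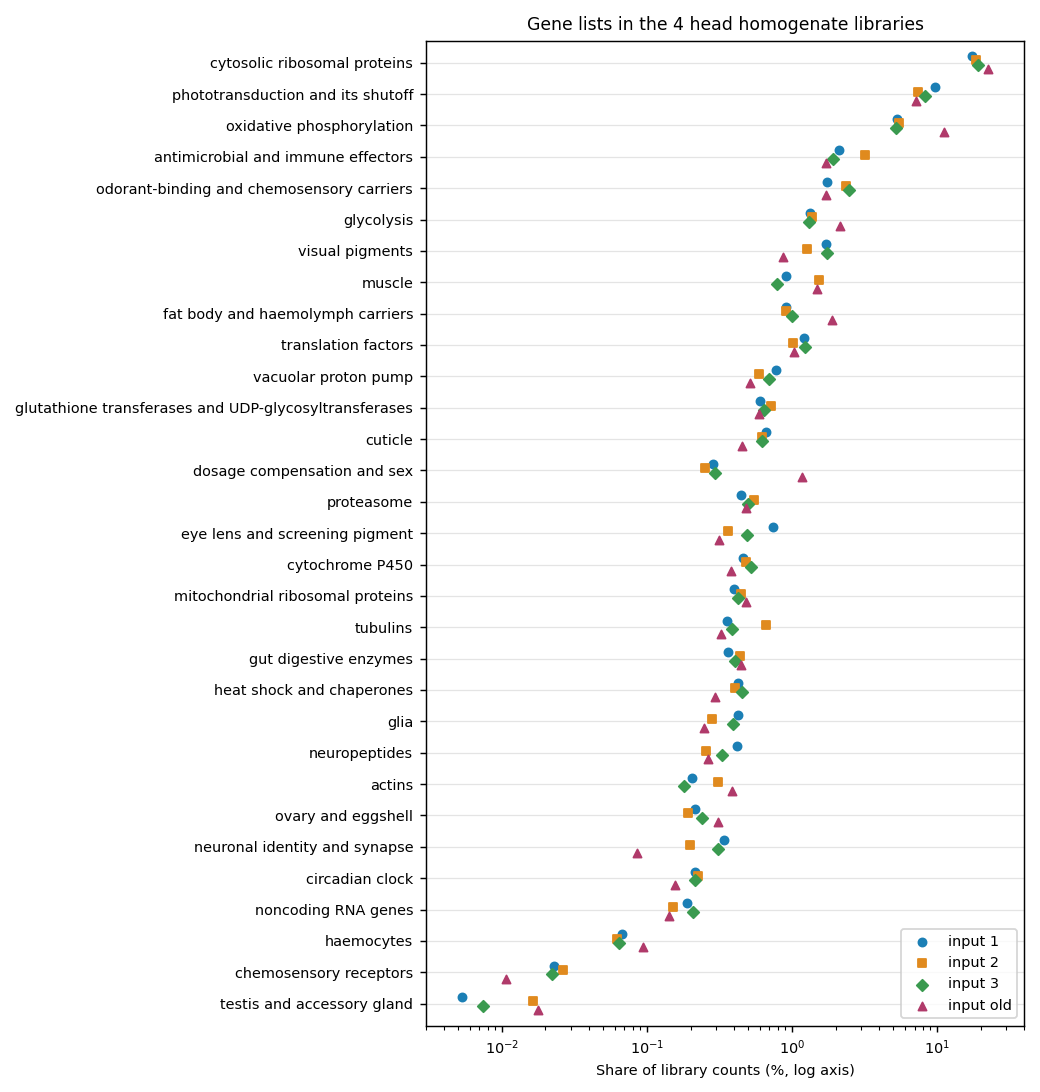
Share of library counts (x axis, %, log axis) for each of 31 gene lists (y axis, ordered by mean), one marker per input library. Most lists lie close together in input 1, 2 and 3, while input old stands to the right for oxidative phosphorylation (11.1%) and to the left for neuronal identity and synapse (0.0850%). The ovary and eggshell list includes the ribosomal protein gene RpS21, which held 48620 of its 51966 counts in input old and 15812 of 16990 in input 1.

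The other rhodopsins were well below ninaE. Rh3, Rh4, Rh5 and Rh6, the pigments of the inner photoreceptors, averaged 1225 ± 345, 888 ± 179, 1014 ± 128 and 463 ± 86.9 CPM. The channels trp and trpl averaged 2848 ± 281 and 2207 ± 591 CPM. inaD, the scaffold that holds the signalling proteins together, averaged 898 ± 133 CPM, chp, a surface protein of photoreceptors, 778 ± 318 CPM, and norpA, the phospholipase, 159 ± 88.0 CPM. All 13 photoreceptor markers had at least 10 counts in every library, and eys, which encodes an extracellular protein between rhabdomeres, was the lowest at 21.9 ± 8.50 CPM.

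Neuronal genes were detected in all libraries but at low levels, and least in input old. The list of neuronal identity and synapse genes took 0.342, 0.200, 0.310 and 0.0850% of counts in input 1, 2, 3 and old. Input old was the lowest under each of the 3 scalings, and 29 of the 33 members with at least 10 counts in every library had their lowest level there. By library totals, input old was the lowest library for 47.1% of the 6461 genes averaging 100 or more counts. Syt1, the calcium sensor of synaptic vesicle release, had 203, 87.0, 205 and 19.0 CPM. Another synaptic gene, nSyb, which encodes the vesicle SNARE, had 223, 186, 140 and 48.0 CPM. Syx1A, the syntaxin of the release site, had 69.9, 28.4, 80.2 and 6.70 CPM. Input old was the lowest for all 3 of these genes under each scaling. The pan-neuronal RNA-binding proteins elav and fne were at 7.46 ± 5.36 and 5.64 ± 5.34 CPM and the sodium channel gene para at 4.02 ± 2.36 CPM. All were lowest in input 2, but from only 26, 14 and 12 counts there, so this order is uncertain. The active zone gene brp was at 40.9 ± 22.7 CPM, lowest in input old by library totals and in input 2 under the other scalings. Leading members of the list were futsch, a microtubule-associated protein (314 ± 160 CPM), Sap47 (262 ± 117 CPM) and Csp, a vesicle chaperone (199 ± 118 CPM).

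Neuropeptide genes took 0.316% ± 0.0759, with Nplp3 at 1480 ± 530 CPM, Dsk, the drosulfakinin precursor, at 318 ± 87.7 CPM and Ilp2, an insulin-like peptide, at 199.7 ± 52.7 CPM. The list of glial genes took 0.337% ± 0.0863, and Gs2, the glutamine synthetase of glia, accounted for much of it with 2193, 1326, 1855 and 959 CPM in input 1, 2, 3 and old. The glial transcription factor repo averaged 34.2 ± 11.3 CPM, and alrm, an astrocyte gene, was between 72.0 and 91.2 CPM in every library. Circadian clock genes took 0.203% ± 0.0323, and the blue-light receptor cry was even at 137 ± 4.70 CPM.

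Mitochondrial energy genes were higher in input old. The list of nuclear oxidative phosphorylation genes took 5.29, 5.46 and 5.24% of counts in input 1, 2 and 3 and 11.1% in input old. There, 67 of its 72 genes with at least 10 counts in every library had their highest level. Input old was the highest library for 17.1% of the 6461 genes averaging 100 or more counts. COX4, a subunit of cytochrome c oxidase, had 2168, 1973, 2205 and 6715 CPM in input 1, 2, 3 and old. ND-AGGG, a subunit of complex I, had 2243, 3372, 1910 and 4440 CPM. ATPsynC was an exception, with input old at 4663 CPM inside the range of the others. Glycolysis took 1.33, 1.38 and 1.32% in input 1, 2 and 3 and 2.13% in input old. Gapdh1 carried much of that, with 1418, 1623, 1397 and 5405 CPM, while its paralog Gapdh2 had 1786, 2346, 1479 and 1737 CPM. By library totals, Ald1 did not set input old apart. Without Gapdh1 the other 12 genes took 1.19, 1.22, 1.18 and 1.59%, and 8 of all 13 had their highest level in input old.

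The yolk protein genes, which are on the fat body list, were also highest in input old. Yp1, a yolk protein made in the fat body and the ovary, had 1556, 1302, 1522 and 5546 CPM in input 1, 2, 3 and old. Its relatives Yp2 and Yp3 had 693, 689, 730 and 2970 CPM and 505, 440, 565 and 3200 CPM. Over the 8 fat body markers in the table the summed level was 13364 CPM in input old and 3698 to 4620 CPM in the others, and all 8 had at least 10 counts in every library. Without the yolk proteins the fat body list took 0.631, 0.674, 0.715 and 0.706% of counts in input 1, 2, 3 and old, and input old was highest only under the other scalings. Among its members apolpp, the lipid carrier of the haemolymph, had 946, 794, 1102 and 978 CPM. Ferritin heavy chain Fer1HCH, another member of the fat body list, was highest in input 2, at 1953 CPM against 1054 to 1106 CPM.

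The muscle list was high in input 2 and input old. It took 0.912, 1.53, 0.794 and 1.49% of counts in input 1, 2, 3 and old, and input old rather than input 2 was highest under the other scalings. Act88F, the actin of indirect flight muscle, had 63.5, 153, 40.5 and 2411 CPM, and TpnC4, a troponin C, 23.3, 17.6, 8.33 and 632 CPM. Both set input old apart from every other library. Act57B had 491, 992, 232 and 156 CPM and was highest in input 2. Mlc2, the regulatory myosin light chain, was high in both, with 1487, 4352, 1564 and 3556 CPM. The markers Act79B, TpnC41C, up and wupA were also higher in input 2 and input old than in input 1 and input 3, as Act79B shows with 193, 638, 206 and 533 CPM. The markers flr and sls did not follow this. By library totals, flr had 24.7, 8.06, 30.2 and 25.1 CPM, lowest in input 2. For sls the levels were 83.1, 94.6, 99.0 and 77.9 CPM, lowest in input old. TpnC25D, another troponin C, had 1515, 2395, 420 and 714 CPM and was highest in input 2. The myosin heavy chain gene Mhc was even at 448 ± 39.4 CPM. Actin genes are near-identical copies of each other in places, so reads may be divided between them and single values are uncertain. The summed level of 10 muscle markers was 3071, 7430, 3038 and 8034 CPM.

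Some digestive enzymes set input old apart as well. The gut markers alphaTry, betaTry, Jon65Aiii, Jon99Ciii, Amy-p and Mal-A1, proteases and carbohydrases of the midgut, summed to 9.95, 24.7 and 36.7 CPM in input 1, 2 and 3 and to 555 CPM in input old. AlphaTry had 3.90, 12.6, 10.2 and 218 CPM, and Jon65Aiii 0, 0.537, 1.63 and 68.7 CPM. Of the 6 gut markers, 1 had at least 10 counts in every library. The wider list of 56 digestive enzyme genes took 0.364, 0.439, 0.406 and 0.448% of counts. Npc2a, Npc2g and cathD, none of them among the gut markers, led it with 15179, 17971 and 9695 of its 75481 counts in input old. In input 1 they had 9307, 7488 and 5265 of 28893. Of the 56 genes, 37 had their highest level in input old, as did 5 of the 15 with at least 10 counts in every library. Over the 6461 genes averaging 100 or more counts, 17.1% had their highest level there. The proteases and amylases among the markers have close copies in the genome, so their single values are uncertain. Markers of the ovary summed to 9.57, 16.9, 10.7 and 36.3 CPM, those of testis and accessory gland to 0.756, 5.59, 1.46 and 3.85 CPM, and He, a haemocyte marker, the eggshell gene Cp16 and the testis genes dj and loopin-1 had no count in any library, where 3 counts would be 0.178 to 0.378 CPM. The yolk protein and gut marker levels were highest in input old, as was oxidative phosphorylation, and their part in it was not tested.

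The summed immune genes separated the libraries in another way, with input 2 at the top. Antimicrobial and immune effectors took 2.11, 3.18, 1.91 and 1.71% in input 1, 2, 3 and old. This sum was highest in input 2 under each of the 3 scalings. Listericin, BomT3 and BomBc2 led the list, with 79750, 43924 and 36227 of its 295884 counts in input 2. The share of the list without them was not examined. Of its 37 members with at least 10 counts in every library, 11 had their highest level in input old. Over the 6461 genes averaging 100 or more counts, 17.1% had their highest level there. The Bomanin BomT3, a short immune peptide, had 2945, 4718, 1572 and 1450 CPM, and BomBc2 1384, 3891, 1437 and 1897 CPM. Odorant-binding and chemosensory carriers took 2.07% ± 0.393, led after EbpIII by Obp19d and Obp44a at 3215 ± 937 and 1684 ± 362 CPM. Chemosensory receptors were scarce, with 0.0205% ± 0.00682 from 31 genes in the table, of which 6 had at least 10 counts in every library. The receptor Ir76a averaged 73.1 ± 44.6 CPM, and the olfactory co-receptor Orco 33.7 ± 6.15 CPM.

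Cuticle genes took 0.589% ± 0.0906, most of it from Cpr72Ec at 3116 ± 709 CPM. Cytochrome P450 genes took 0.461% ± 0.0587, led by Cyp28d1, and conjugating enzymes 0.642% ± 0.0554, led by the glutathione transferase GstE12 at 2062 ± 607 CPM. The vacuolar proton pump took 0.646% ± 0.116, the proteasome 0.492% ± 0.0430 and chaperones 0.395% ± 0.0715, with Hsc70-4, the constitutive Hsp70 relative, in front at 1071 ± 309 CPM. Tubulins took 0.434% ± 0.156, and alphaTub84B was highest in input 2, with 1530, 3439, 1901 and 1354 CPM. The 8 dosage compensation and sex genes in the table took 0.284, 0.251, 0.293 and 1.18% (0.276% on average without input old). The 3 yolk protein genes on that list carried this, and the other 5 genes took 0.00841, 0.00753, 0.0116 and 0.00522%, lowest in input old. Noncoding RNA genes took 0.173% ± 0.0311.

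Libraries agreed on ranks but differed in levels by far more than counting error. Over the 6461 genes whose counts averaged 100 or more, which hold 98.9% of counts, the coefficient of variation between libraries had a median of 34.5% (quartiles 23.1 and 48.0%), where counting error alone would give 5.02%. The common biological coefficient of variation, edgeR's estimate of the spread beyond counting error, was 0.436. It was 0.360 without input old and 0.435 to 0.479 without any 1 of the other libraries. Across genes, the log2 CPM of input 1 and input 3 correlated best, with a Spearman coefficient of 0.911, and 89.3% of genes were within 2-fold. For input 1 and input old these were 0.788 and 64.8%. Coefficients across genes describe the libraries and carry no test, because genes are not independent and the pairs share libraries.

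Input old was the lowest library for 47.1% of these genes and the highest for 17.1%. Its genes lay at a median log2 difference of −0.37 from the median of the other 3 libraries when library totals set the scale, and at 0.06 when TMM did, so this offset depends on the scale. More than 4-fold below each of the others were 141 genes in input old, 49 in input 1, 24 in input 2 and 2 in input 3. More than 4-fold above each were 45, 4, 2 and 0 in the same order. Of the 100 genes with the highest dispersion relative to the trend, 64 had their highest level in input old, 25 in input 2, 9 in input 1 and 2 in input 3.

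Of the 15 most variable genes by that measure, 14 had their highest level in input old. CG14645 had 0, 11.7, 12.0 and 626 CPM in input 1, 2, 3 and old. The gene whe had 46.2, 0.430, 32.3 and 979 CPM. Ag5r, which encodes a relative of insect venom antigen 5, had 0, 0, 1.46 and 82.8 CPM. Drsl4, a drosomycin-like peptide gene, had 2.01, 1.29, 6.78 and 162 CPM, and ND-B8, a subunit of complex I, 2.64, 8.81, 6.61 and 193 CPM. Further ones with their highest level in input old were CG6839, CG34324, CG34212, Jon65Aiii, CG34220, CG16826, TpnC4, Bace and CG3906. SdicB was the exception, with 95.2, 73.3, 59.9 and 0 CPM. The 10 least variable genes relative to the trend, among them Ttc1 (18.5 ± 1.58 CPM), BckdhA (21.0 ± 2.77 CPM), which encodes an enzyme of branched-chain amino acid breakdown, and rictor (9.23 ± 1.21 CPM), a component of the TOR complex, had low levels of 9.23 to 22.0 CPM.

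**Figure D3:**
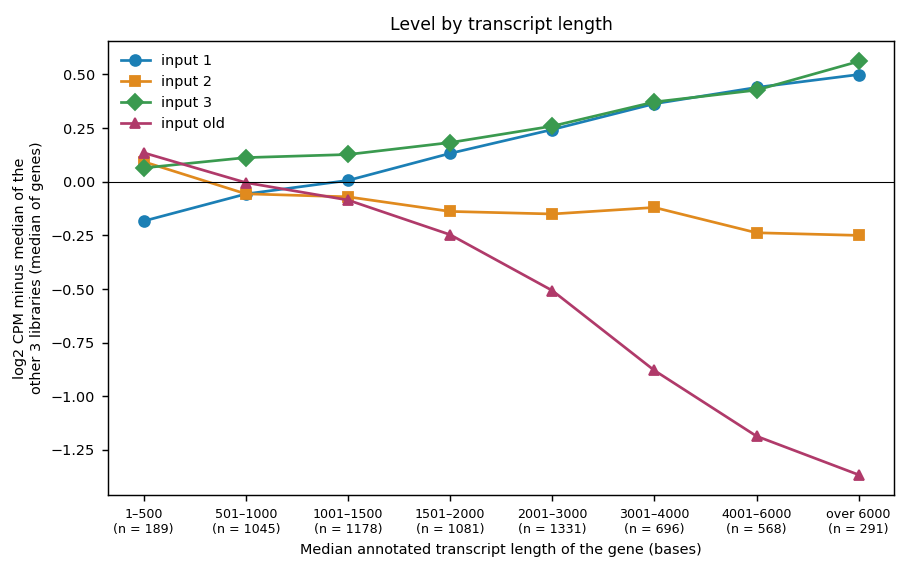
Median over genes of a library's log2 CPM minus the median of the other 3 libraries (y axis), by annotated transcript length (x axis, bases, with the number of protein-coding genes in each class), one line per input library. Input old falls to −1.37 for the longest transcripts, while input 1 and input 3 rise to 0.50 and 0.56.

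The level in input old moved with transcript length. For the 189 protein-coding genes of up to 500 bases, its median log2 difference from the other libraries was 0.14, for the 1331 genes of 2000 to 3000 bases −0.51, and for the 291 genes over 6000 bases −1.37. Input 1 and input 3 went the other way, to 0.50 and 0.56 for the longest genes, and input 2 reached −0.25. The median that input 1 and input 3 are set against includes input old, so these differences are not independent of its fall. By the longest annotated 3′ UTR of a gene, input old went to −1.70 for the 163 genes over 3200 bases. Of these, 96.3% were lower than the median of the others, beside 52.4% of the 1189 genes of up to 100 bases. Across genes, the Spearman coefficient of transcript length with the difference of input old was −0.45. The lists were not alike in length: the neuronal list had a median transcript of 4896 bases and a median log2 difference of −1.85 in input old (28 of 29 genes lower), and the oxidative phosphorylation list 670 bases and 1.15 (68 of 71 higher). Over all 6461 genes the median was −0.37, and 4436 were lower. The part of transcript length in these differences was not tested.

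Most genes used one 3′ end in the homogenate. An end was counted as used where it held at least 5% of the counts of its gene, summed over the 4 libraries. Of 8318 genes with at least 100 counts, 65.4% had 1 used end, 25.8% had 2, 6.98% had 3, 118 genes had 4 and 30 had 5 or more. The mean was 1.46 used ends a gene, although these genes had on average 2.09 ends in the count table and 4.47 in the deposited list of known ends. Within single libraries, 33.9 to 34.7% of genes had 2 or more used ends, so this share barely moved between libraries. The abundant genes were simpler: 26 of the first 30 had 1 used end, Arr2 and CG17108 having a single end in the table. The exceptions were Ald1, whose dominant end held 87.9% of counts, ATPsynC (77.1%), RpS15 (91.6%) and RpL24 (90.4%).

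The lists differed in end usage. At least 2 used ends were found for 13.2% of cytosolic ribosomal protein genes (10 of 76), 7.69% of immune effectors (3 of 39), 15.2% of proteasome genes (5 of 33) and 22.2% of phototransduction genes (6 of 27). The shares were 44.1% for neuronal identity and synapse (15 of 34), 46.9% for muscle (15 of 32), 57.9% for circadian clock (11 of 19) and 57.9% for the vacuolar proton pump (11 of 19), beside 34.6% over all genes. By transcript length, the share was 20.1% for the 1544 genes of up to 1000 bases and 43.1% for the 1166 over 4000 bases. Median lengths of these lists, in the order given, were 709, 528, 1208 and 2334 bases, then 4896, 1746, 3110 and 1644 bases. The part of length in the list shares was not tested. Among neuronal markers, nSyb used 2 ends, of which the dominant one held 60.5% of counts, and elav 3, of which the dominant one held 43.0% of 307 counts. Syx1A, brp, fne and onecut used 1. Among clock and muscle genes, cry used 3 ends and up, the troponin T gene, 4, with 42.2% and 31.0% at the dominant end.

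**Figure D4:**
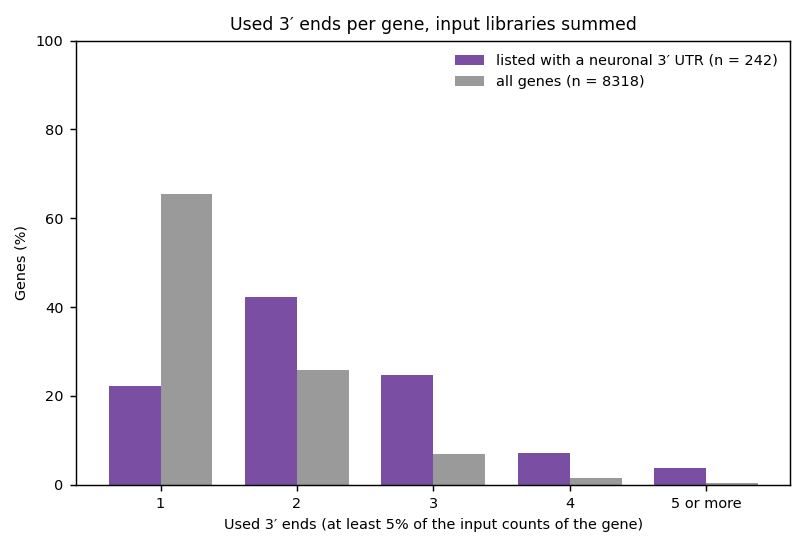
Percent of genes (y axis) by number of used 3′ ends (x axis), for 242 genes listed as having a neuronal 3′ UTR (left bars) and for all 8318 genes with at least 100 input counts (right bars). A single used end is found for 22.3% of the listed genes and 65.4% of all genes.

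Genes listed by the study, from earlier work, as having a neuronal 3′ UTR had more used ends in the homogenate. Of 271 such genes, 242 had at least 100 counts, and 77.7% of these (188) had 2 or more used ends, beside 34.6% of all 8318, which include them. At least 3 were found for 35.5% of the listed genes and 8.76% of all. The listed genes had a median level of 27.9 CPM, beside 25.7 CPM over all, and a median transcript length of 4116 bases, beside 1879. Within genes over 4000 bases the shares were 77.0% of 126 listed genes and 43.1% of all 1166, and in genes of 2000 to 4000 bases 81.6% of 87 and 39.9% of 2697. A gene enters that list for having an alternative end, so the difference is partly what the list was made from, and it carries no test.

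The genes with the most used ends included regulators, synaptic genes and a muscle gene. The transcription factor gene lola, whose isoforms carry different C-terminal exons, had 8 used ends and an effective number of ends of 11.4, the number of equally used ends with the same entropy, and its dominant end held 17.1% of 3705 counts. It was followed by mod(mdg4), a chromatin protein gene with trans-spliced isoforms (6 used ends, effective number 7.50), and alphaSnap, whose product takes SNARE complexes apart (6 and 7.17). Mf, the muscle protein myofilin, had 6 and 5.71. The calsyntenin gene Cals, the acetylcholinesterase gene Ace and Bacc had 6 used ends each, and Acsl, CaMKI, Hrb27C, Pldn and tral 5 each. Of these 12 genes, 4 were on the neuronal 3′ UTR list.

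The dominant end was mostly the same in every library. Of 3182 genes with at least 2 ends and at least 100 counts in every library, 87.4% (2781) had one dominant end in all 4. The share at the dominant end spanned a median of 9.49 percentage points between libraries, under 10 points for 51.4% of these genes and over 50 points for 49 genes. Pairs of libraries named the same dominant end for 91.9 to 94.2% of genes, and by this share alone input 2 with input 3 was the best pair. Where 1 library alone had another dominant end, this was input old for 109 genes, input 1 for 75, input 2 for 60 and input 3 for 44.

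**Figure D5:**
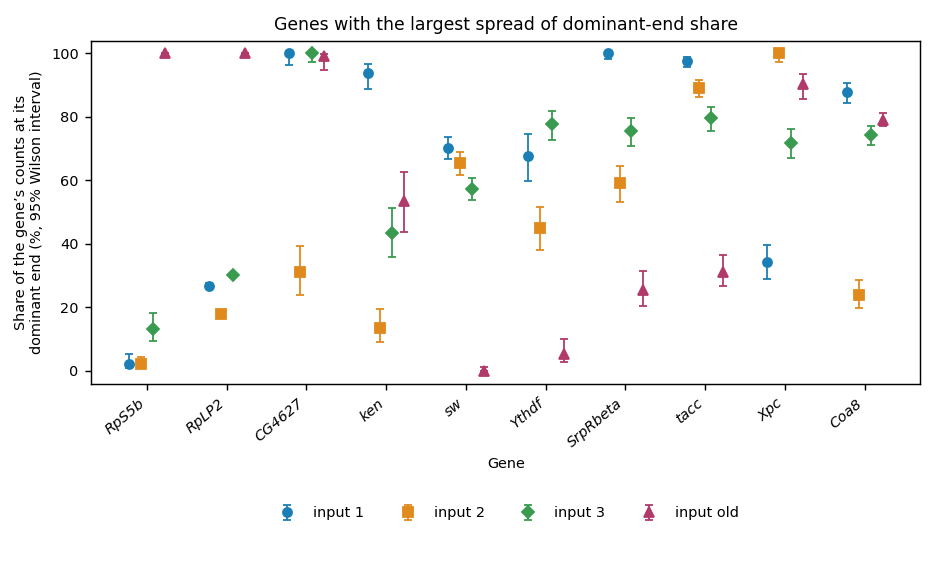
Share of a gene's counts at its dominant 3′ end (y axis, %) in each input library for the 10 genes with the largest standard deviation of that share between libraries (x axis). Markers are libraries and bars are 95% Wilson intervals of counting error, and in RpS5b and RpLP2 input old is at 100% while the others are at 30.4% or less.

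RpLP2, a protein of the ribosomal stalk (2R:16586129-16586732), differed most in counts. Its end number 2 had 1573, 2202 and 1402 CPM in input 1, 2 and 3 and no count in input old, where its end number 3 had 6752 CPM beside 578, 477 and 612 CPM in input 1, 2 and 3. The gene as a whole had 2151, 2679, 2014 and 6752 CPM. RpS5b, a ribosomal protein gene with a close paralog, had 27.1, 33.3, 16.7 and 0 CPM at its end number 0 and 0.630, 0.752, 2.58 and 75.8 CPM at its end number 1. In sw, the dynein intermediate chain gene, end number 2 had 59.1, 49.8, 38.2 and 0 CPM. Ends of Sdic3 and SdicB, chosen after their values were seen, which derive in part from sw and share sequence with it, were also at 0 in input old, against 93.7 to 143 and 59.9 to 95.2 CPM in the other libraries, so reads of these genes cannot be placed with certainty. In all, 5 ends with at least 10 CPM in each other library had no count in input old, where 3 counts would be 0.178 CPM, and 6 such ends had none in input 1 and 0 in input 2 and in input 3.

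Other large spreads involved lower counts and other libraries. Ythdf, which encodes a reader of RNA methylation, had 67.8, 44.9, 77.7 and 5.30% of its counts at the dominant end in input 1, 2, 3 and old, from 149 to 318 counts. For tacc, a centrosomal microtubule regulator, these were 97.7, 89.1, 79.7 and 31.3%. SrpRbeta, a subunit of the signal recognition particle receptor, had 100, 59.1, 75.5 and 25.6%. Input 2 stood lowest in CG4627 with 31.1%, ken with 13.5% and Coa8 with 24.0%. It was also lowest in RpLP2, with 17.8%, and in RpS5b, with 2.21% beside 2.27% in input 1. Xpc, a DNA repair gene, was lowest in input 1, at 34.2%. The end numbers in the count table carry no positions, so whether these shifts are to shorter or longer 3′ UTRs cannot be told here.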

How the data were processed

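Libraries were made with the Lexogen QuantSeq REV kit. Reads were trimmed by the authors with fastp and aligned with STAR (2.6.1b in the submitters' processing notes) to dm6, and the authors masked likely internal priming and kept peaks near known 3′ ends. The authors deposited raw counts per gene and per 3′ end, which were used here, and a gene's count was the sum over its ends. A deposited table of the authors' own comparison, with fold changes and p-values, was not used.

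Counts were divided by library totals (CPM). No hypothesis test was run, since the 4 libraries form 1 group. Dispersions and TMM factors came from edgeR 4.0.16 and size factors from DESeq2 1.42.0 in R 4.3.3, with Python 3.11.15, pandas 2.3.3, NumPy 2.4.6 and SciPy 1.17.1 for the rest. The dispersion step was also run on simulated data with a smaller background spread than was estimated here. That run checks the code and not the ranking of genes in these data. Spread was computed over genes averaging 100 or more counts, log2 differences with a pseudocount of 0.5 CPM, and intervals are 95% Wilson. Gene names and lengths came from Ensembl's dm6 annotation. A gene's transcript length was the median over its annotated transcripts, and its coding and 3′ UTR lengths were the longest among them.

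The genes named were the 30 most abundant, the first 3 of each list and the cell type markers, the 15 most and 10 least variable relative to the dispersion trend, the 10 genes with the most used ends, the 10 with the highest effective number, the 10 with the largest spread of the dominant end, and the 10 leading CG-number genes. Members and lists were chosen with earlier results of these data known. Alternatives were other scalings, count minimums, end thresholds and leaving out each library.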

Additional observations from a re-analysis of the deposited data

Results flagged for a closer look

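In 9 of 66 values examined, 31 of them list shares, 1 library lay apart from the other 3 by more than Dixon's 95% criterion for 4 samples allows. Chance flags about 1 in 20 such groups. Input old was the library apart in 8 of the 9. Its share of counts was high for oxidative phosphorylation (11.1%), glycolysis (2.13%), fat body and haemolymph carriers (1.88%), haemocytes (0.0936%) and dosage compensation and sex genes (1.18%), and low for circadian clock genes (0.156%). Without the 3 yolk protein genes, the dosage compensation and sex list took 0.00522% in input old, against 0.00753 to 0.0116% in the others, and the fat body list 0.706%, against 0.631 to 0.715%. Glycolysis without Gapdh1 took 1.59% in input old, against 1.18 to 1.22%. On the haemocyte list, SPARC and PPO1 held 7616 and 2498 of 15786 counts in input old, against 2108 and 593 of 5390 in input 1. The 6 haemocyte markers summed to 148, 119, 123 and 108 CPM in input 1, 2, 3 and old, lowest in input old by library totals. Under TMM scaling the clock genes were lowest in input 3 instead. Among single genes, RpS14a and RpLP1, both ribosomal protein genes, had 6910 and 5646 CPM in input old. CG8369 had 8563 CPM in input 2.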

How the results depend on the processing

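Of 272 alternative values over 39 results, 17 moved by more than 1 SD, taken between libraries or between the values with 1 library left out. For 3 of these, a list was taken without its leading members, an alternative chosen after seeing the data: without the yolk protein genes the mean share was 0.00818% for dosage compensation and sex (0.501% with them) and 0.682% for fat body (1.17%), and without ninaE 0.373% for visual pigments (1.40%). The dosage compensation and sex share was 0.276% without input old, within 1 SD but 1.82 times lower. The share of genes with 2 or more used ends (34.6%) was 46.2% when 1% of a gene's counts made an end used, 27.0% at 10%, and 33.4% with genes of at least 40 counts, and 34.4 to 34.7% when each library was left out in turn. The share with one dominant end (87.4%) was 84.0% at 25 counts in every library, 89.5% at 250, and 88.7 to 90.6% with 1 library left out, where fewer libraries had to match. The median coefficient of variation (34.5%) was 45.5% with no filter on low counts, 26.6% at a mean count of 1000, and 26.9 to 36.0% with 1 library left out, the lowest being without input old. The common biological coefficient of variation (0.436) was 0.699 with no filter and 0.360 to 0.479 with 1 library left out, again lowest without input old. Of 270 named genes, 111 had another highest or lowest library under TMM or median-of-ratios scaling, as did 10 and 15 of the 31 lists under TMM. No paired analysis was possible because the results come from 1 group and no test. A gene with no count in a library may still be present there at up to 3 counts, 0.178 to 0.378 CPM.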
